A study of Mus musculus with 6 samples.

Results

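The genes described here are 10 core genes of the Notch pathway, chosen by symbol: the receptors Notch1, Notch2, Notch3 and Notch4, the ligands Jag1, Jag2 and Dll1, and the target genes Hes1, Hey1 and Heyl. All 10 were among the 17419 genes of the deposited table. RNA had been sequenced from fibroblasts of the tendon enthesis, the zone where tendon anchors in bone, taken from SKG mice, a strain with mutant Zap70 that develops autoimmune arthritis. The labels give 3 samples as diseased and 3 as un-diseased, so both groups share the SKG background, and they give no age, sex, inducing agent or number of animals per sample. Whether replicates stem from different animals is not in the labels either, and p-values here speak of sample-to-sample spread, technical or not.

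Notch signalling runs between cells in contact. A Jagged or Delta-like ligand on one cell binds a Notch receptor on its neighbour, the receptor is cut by an ADAM protease and then by gamma-secretase, and its freed intracellular domain enters the nucleus, where it joins RBPJ and a Mastermind co-activator and switches on Hes and Hey genes. In joint tissue, NOTCH3 signalling is known for the identity of perivascular synovial fibroblasts, NOTCH4 is mainly a receptor of blood vessel endothelium, and JAG1 is made by many mesenchymal cells.

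Values are CPM, estimated counts on the usual CPM scale after TMM scaling of each library. Libraries held 16720605 to 18290870 counts. Pdgfra, a fibroblast receptor gene, had 911 to 1221 CPM over the 6 samples. Of the endothelial genes, Pecam1 and Cdh5 had 3.38 to 5.79 and 0.939 to 4.42 CPM, but Tek had 31.8 to 73.3 CPM. Of the listed cell types, summed markers separated the groups for tendon alone, and the ranges of all others overlapped. T and B cell markers summed to 2.15 to 6.58 CPM in diseased and 3.28 to 8.20 CPM in un-diseased samples. Schwann cell markers summed to 14.2 to 23.1 and 14.6 to 21.0 CPM. By edgeR 0 of 4 and 0 of 3 tested passed. With the replicate number as a block 1 T and B cell marker fell, where 13.3% of all tested genes did. The 7 fibroblast markers, Pdgfra among them, summed to 81270 to 114700 CPM in diseased and 60370 to 86610 CPM in un-diseased samples. Their estimates were positive for 5 and negative for 2. By edgeR 0 of 7 passed, and 1 rose and 0 fell with the replicate number as a block. The 5 tendon markers summed to 4598 to 6689 CPM in diseased and 2380 to 2886 CPM in un-diseased samples, and by edgeR 2 of 5 rose, or 4 with the block. The 12 macrophage and monocyte markers summed to 161.3 to 449.4 CPM in diseased and 40.5 to 220.4 CPM in un-diseased samples. Of 11 tested, 0 rose by edgeR without the block, 11 rose with it, and 11 were higher within 3 of 3 replicate numbers. Over all tested genes 1.61% rose by edgeR without the block and 10.5% with it. The part of these shifts in the results below, blocked calls included, was not tested. In these bulk samples, fewer cells of a type and less RNA per cell cannot be told apart.

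None of the Notch genes passed the test between diseased and un-diseased samples. With the quasi-likelihood test of edgeR and a Benjamini-Hochberg threshold of 0.05, 0 of 9 tested Notch genes rose and 0 fell, where 3.73% of all 13264 tested genes were called (1.61% higher and 2.13% lower). At an unadjusted p under 0.05 the count was also 0 of 9, against 27.8% of all tested genes. DESeq2 and limma-voom called 0 as well, while of all 13264 tested genes they called 635 and 215 higher and 882 and 286 lower. The groups overlapped for every one of the 10 genes, while they did not overlap for 31.9% of all tested genes (16.5% with diseased above and 15.4% with diseased below). Notch4, with 6 to 14 counts per sample, was left out by the filter on low counts. Samples that carry the same replicate number deviated together, and with the replicate number as a block 1 of the 9, Hes1, passed as lower, where 23.9% of all tested genes were called and 13.3% were called lower.

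**Figure D1:**
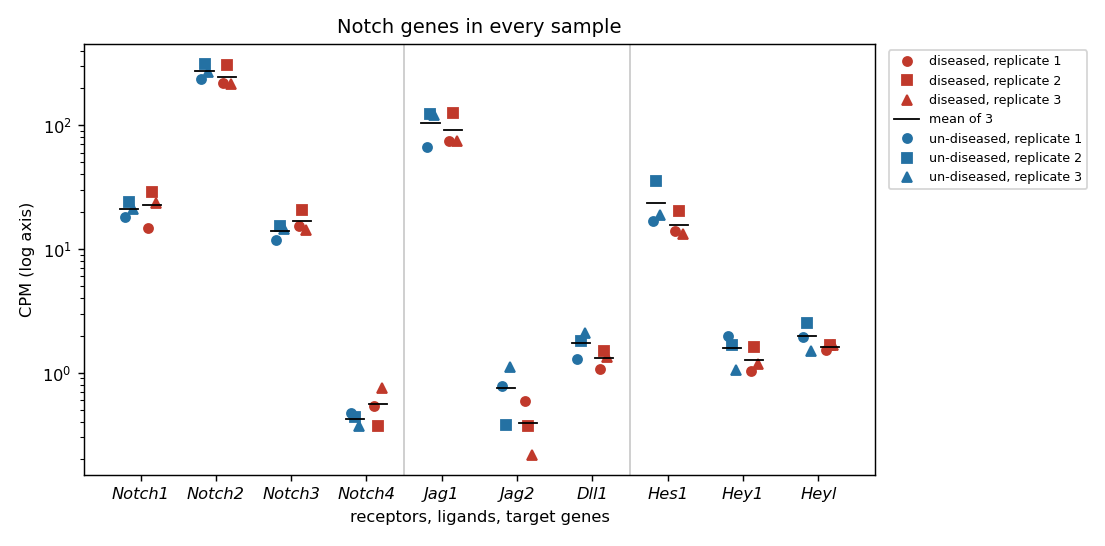
CPM (log axis) of the 10 Notch genes in each of the 6 samples; blue marks un-diseased and red diseased samples, the marker shape gives the replicate number and the black bar the mean of 3. Notch2, Jag1, Notch1, Notch3 and Hes1 sit above 10 CPM in every sample, the other 5 genes below 3 CPM, and the groups overlap for each gene.

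Among the receptors, Notch2 made up nearly all of the RNA. To set genes side by side, levels were taken per kilobase of merged exon, a rough scale that joins the exons of all annotated transcripts. Notch2 had 24.1 CPM per kilobase over the 6 samples (range 19.9 to 29.2), Notch3 1.89 (1.45 to 2.54), Notch1 1.53 (1.04 to 2.04) and Notch4 0.0609 (0.0461 to 0.0937). The order of Notch3 and Notch1 rests on their merged lengths of 8089 and 14232 bases, since their mean CPM were 15.3 and 21.8. Notch2 took 85% to 88.9% of the summed receptor level in every sample. The ranges of Notch3 and Notch1 overlapped, while that of Notch2 lay above and that of Notch4 below all others.

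The windows before the starts of these highest and lowest receptors are shown because they differ in base composition. Each runs from 250 to 31 bases before the transcript start of the RefSeq promoter table (GRCm38.p6, both on the plus strand, 5′ to 3′), with the dinucleotide CG in capitals; Notch2 is at chr3:98013288-98013507 and Notch4 at chr17:34564045-34564264. Those starts can lie inside the gene spans given below, as for Notch4 and Jag2.
Notch2: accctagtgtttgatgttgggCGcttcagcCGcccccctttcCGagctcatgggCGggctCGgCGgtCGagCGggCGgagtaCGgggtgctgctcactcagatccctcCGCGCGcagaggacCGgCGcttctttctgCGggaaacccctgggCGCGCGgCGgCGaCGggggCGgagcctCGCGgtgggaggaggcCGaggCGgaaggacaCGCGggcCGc
Notch4: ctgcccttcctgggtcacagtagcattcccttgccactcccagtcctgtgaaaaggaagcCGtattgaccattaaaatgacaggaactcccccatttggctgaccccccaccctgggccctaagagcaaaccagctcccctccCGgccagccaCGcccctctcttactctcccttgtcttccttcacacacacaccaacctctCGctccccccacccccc
The Notch2 window holds 30 CG and the Notch4 window 4, against a median of 5 over 32851 RefSeq windows of the same length, 90.6% of which hold at least 1. CG content did not order the genes by level, since the window of Jag2, the ligand with the least RNA, holds 46 and that of Jag1, the ligand with the most, holds 17. The core letters of the RBPJ motif, TGGGAA, searched on both strands, were in none of the 8 windows of the 7 receptor and ligand genes (Dll1 has a pair of starts) and in 19.4% of all windows. Hes1, Hey1 and Heyl were not in the promoter table.

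Notch2 (chromosome 3, 98013538 to 98150367) had 219, 305 and 214 CPM in diseased replicates 1, 2 and 3 and 238, 315 and 267 CPM in the un-diseased ones. Replicate 2 was the highest of each group, and the groups overlapped. The log2 fold change, diseased minus un-diseased, was -0.15 (SE 0.18, adjusted p = 0.598 by edgeR), and its 95% interval of -0.57 to 0.27 corresponds to a fold of 0.675 to 1.2. Within replicate numbers the diseased sample was lower in 3 of 3 (-0.12, -0.05 and -0.32 on the log2 scale), yet with the block the adjusted p was 0.301.

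Notch3 (chromosome 17, 32120820 to 32166896), the receptor tied to perivascular fibroblasts, had 15.5, 20.6 and 14.1 CPM in diseased and 11.7, 15.3 and 14.6 CPM in un-diseased replicates 1, 2 and 3. Only diseased replicates 1 and 2 exceeded all un-diseased samples. It had the largest positive estimate of the 9 tested genes, a log2 fold change of 0.27 (SE 0.18, 95% interval -0.15 to 0.69, adjusted p = 0.353 by edgeR). Summed markers of pericytes and smooth muscle, the vessel wall cells that also make Notch3, covered 9 of 10 listed genes. The sum was 217.4 to 265.9 CPM in diseased and 243.5 to 270.1 CPM in un-diseased samples. Cspg4 alone had 97.8 to 145.6 CPM. Of 8 tested markers, 4 estimates were positive and 4 negative. By edgeR 0 rose and 0 fell without the block, and 0 rose and 1 fell (Abcc9) with it, where 13.3% of all tested genes fell.

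Notch1 (chromosome 2, 26457902 to 26503822) had 14.8, 29.1 and 23.6 CPM in diseased and 18.0, 24.1 and 21.2 CPM in un-diseased replicates 1, 2 and 3. The diseased samples held both the lowest and the highest value, and the log2 fold change was 0.09 (SE 0.24, 95% interval -0.47 to 0.65, adjusted p = 0.828 by edgeR). Its sign turned when diseased replicate 2 (-0.14) or un-diseased replicate 1 (-0.02) was left out. Notch4 (chromosome 17, 34564286 to 34588543) had 0.538, 0.374 and 0.755 CPM in diseased and 0.469, 0.438 and 0.372 CPM in un-diseased replicates 1, 2 and 3. With no filter beyond 1 count its log2 fold change was 0.39 (SE 0.45, adjusted p = 0.615 by edgeR), a difference not detectable at this depth. The 12 endothelial markers summed to 51.8 to 70.4 CPM in diseased and 60.8 to 87.3 CPM in un-diseased samples, with Tek alone at 31.8 to 73.3 CPM. Without Tek, a choice made after seeing the values, the other 11 summed to 20.0 to 28.6 CPM in diseased and 13.6 to 15.2 CPM in un-diseased samples, so the direction turned. Of 9 tested endothelial markers 1 rose (Erg) and 0 fell by edgeR, and 3 rose and 1 fell (Tek) with the block. Over all tested genes 1.61% rose and 2.13% fell, or 10.5% and 13.3% with the block.

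Of the ligands, Jag1 accounted for 96.4% to 98.1% of the summed level per kilobase in each sample. Its 16.8 CPM per kilobase (range 11.4 to 21.4) overlapped the range of Notch2, against 0.361 for Dll1 (0.255 to 0.499) and 0.0825 for Jag2 (0.031 to 0.16). Jag1 (chromosome 2, 137081451 to 137116520) had 74.5, 124.9 and 74.8 CPM in diseased and 66.4, 123.8 and 121.7 CPM in un-diseased replicates 1, 2 and 3. Replicate 2 of both groups and un-diseased replicate 3 were high, and the other 3 samples were low. The log2 fold change was -0.19 (SE 0.29, 95% interval -0.86 to 0.49, adjusted p = 0.696 by edgeR). Within replicate numbers 1 and 2 the difference was 0.17 and 0.01, and within replicate number 3 it was -0.70.

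Dll1 and Jag2 were sparse. Dll1 (chromosome 17, 15367354 to 15376932), which starts lateral inhibition in many developing tissues, had 1.08, 1.49 and 1.35 CPM in diseased and 1.3, 1.82 and 2.11 CPM in un-diseased replicates 1, 2 and 3. The diseased sample was lower within 3 of 3 replicate numbers, but the log2 fold change of -0.41 (SE 0.30, 95% interval -1.11 to 0.28) did not pass (adjusted p = 0.386 by edgeR, 0.307 in the blocked fit). Jag2 (chromosome 12, 112907803 to 112929812) had 0.587, 0.374 and 0.216 CPM in diseased and 0.782, 0.376 and 1.12 CPM in un-diseased samples, from 4 to 18 counts each. Its estimate of -0.93 was the farthest from 0 among the 9 tested genes and also the least precise (SE 0.53, 95% interval -2.17 to 0.32, adjusted p = 0.287 by edgeR).

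**Figure D2:**
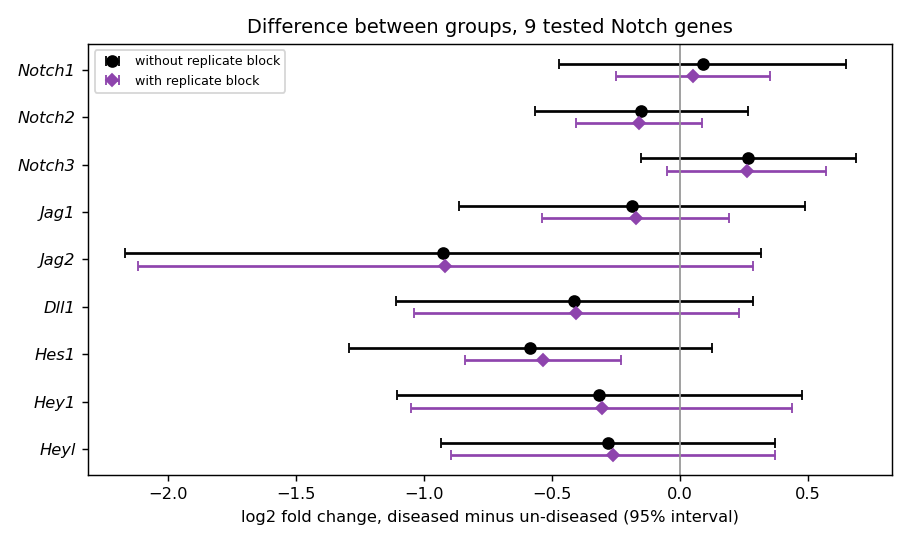
Log2 fold change (diseased minus un-diseased, horizontal axis) of the 9 tested Notch genes with its 95% interval, by edgeR without the replicate block (black circles) and with it (purple diamonds). All 9 black intervals span 0, and with the block only that of Hes1 does not, at -0.53.

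The 3 target genes all had negative estimates, and Hes1 carried most of their RNA. Hes1, a repressor of the basic helix-loop-helix class and a direct Notch target in many cell types, took 89.3% to 94.5% of the summed target level per kilobase. It had 14.0, 20.1 and 13.1 CPM in diseased and 16.7, 35.3 and 18.9 CPM in un-diseased replicates 1, 2 and 3 (chromosome 16, 30065357 to 30067796). Un-diseased replicate 2 stood highest, and diseased replicate 2 lay above the other un-diseased samples, so the groups overlapped although the diseased sample was lower within each replicate number (-0.25, -0.81 and -0.53 on the log2 scale).

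Hes1 did not pass without the block, at a log2 fold change of -0.58 (SE 0.30, 95% interval -1.29 to 0.13, adjusted p = 0.248 by edgeR). With the replicate block it fell by 0.53 on the log2 scale (SE 0.13, adjusted p = 0.0249 by edgeR; adjusted p = 0.0354 with DESeq2 and the block). That call was lost without replicate number 2 (-0.39, adjusted p = 0.151) and without replicate number 3 (-0.54, adjusted p = 0.115), and held without replicate number 1 (-0.69, adjusted p = 0.0172). Without the block, leaving out un-diseased replicate 2 moved the estimate to -0.18. In the authors' deposited table the log2 ratio of un-diseased over diseased was 0.60 for Hes1, with a q-value of 0.269, and no Notch gene of the 10 had a q-value under 0.05.

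Hey1 and Heyl encode related repressors, known as targets in vessels and, for Heyl, in vessel wall cells. Hey1 (chromosome 3, 8663359 to 8667038) had 1.03, 1.62 and 1.19 CPM in diseased and 1.98, 1.69 and 1.05 CPM in un-diseased replicates 1, 2 and 3. The log2 fold change was -0.31 (SE 0.34, adjusted p = 0.56 by edgeR). Heyl (chromosome 4, 123233556 to 123249870) had 1.52, 1.68 and 1.67 CPM in diseased and 1.93, 2.51 and 1.49 CPM in un-diseased samples, and its log2 fold change was -0.28 (SE 0.28, adjusted p = 0.526 by edgeR). For both, the diseased sample was lower within replicate numbers 1 and 2 and higher within replicate number 3. Per kilobase, Hey1 (0.437), Dll1 (0.361) and Heyl (0.352) had overlapping ranges, as did Jag2 and Notch4 at the bottom of the order.

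Over the 9 tested genes the median log2 fold change was -0.28, with 7 estimates negative and 2 positive, beside a median of 0.02 over all tested genes, of which 6390 were negative and 6874 positive. The median SE of the 9 was 0.29, against 0.17 over all tested genes. The upper bounds of the 9 intervals reached from 0.13 for Hes1 to 0.69 for Notch3, and the lower bounds from -0.15 for Notch3 to -2.17 for Jag2.

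**Figure D3:**
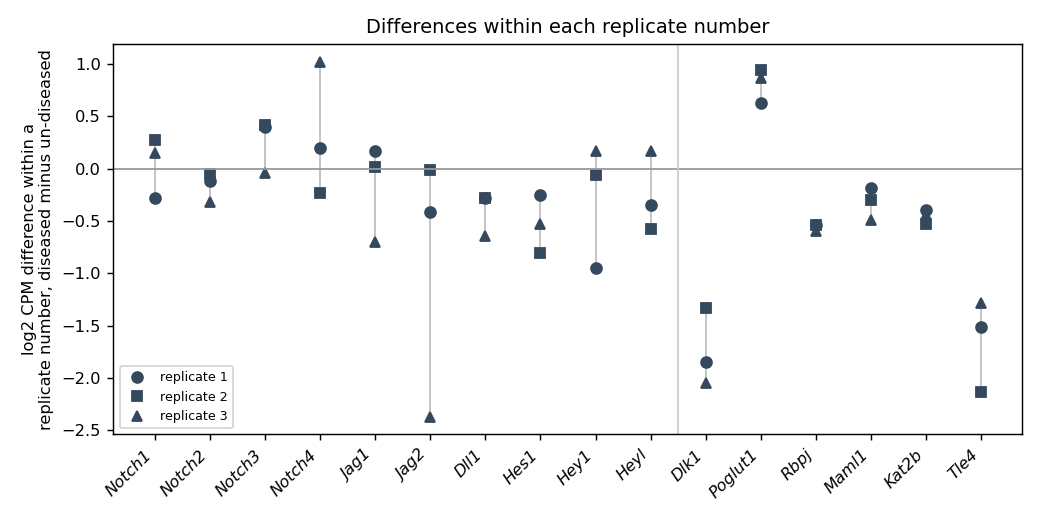
Log2 CPM difference, diseased minus un-diseased, within replicate numbers 1 (circle), 2 (square) and 3 (triangle), for the 10 Notch genes and, right of the line, 6 other pathway genes. Notch2, Jag2, Dll1 and Hes1 are below 0 within all 3 numbers, and Rbpj lies between -0.54 and -0.59.

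Other genes of the pathway were taken from a list of 69 by role, of which 68 were in the table and 56 were tested. By edgeR 1 rose (Poglut1), 2 fell (Dlk1 and Tle4) and 53 did not pass, or 5.36% called against 3.73% of all tested genes, and the median log2 fold change was -0.02. Dlk1 passed the filter on low counts through the un-diseased samples alone, and without it 3.64% of 55 were called, so the share is near that of all genes. DESeq2 without the block called the same 3 and also Rbpj, Kat2b, Tle1 and Numbl as lower. That made 1 higher and 6 lower of the 56, against 635 higher and 882 lower of all 13264 tested genes. With the replicate block 2 rose and 9 fell, or 19.6% called against 23.9% of all tested genes (10.5% higher and 13.3% lower). The edgeR calls without the block were lost with fewer libraries while the fold changes stayed near their size: 0 rose and 0 fell when any 1 of diseased replicates 1, 2 and 3 or un-diseased replicates 2 and 3 was left out, and 2 rose and 1 fell without un-diseased replicate 1. Over those 6 fits the log2 fold change was 0.71 to 0.90 for Poglut1, -1.86 to -1.56 for Dlk1 and -1.89 to -1.35 for Tle4, and calls over all genes fell to as few as 2 higher and 3 lower. In the authors' deposited table these 3 had q-values of 8.38e-05, 0.0402 and 7.17e-06. In the blocked fit the calls of Poglut1, Tle4 and Rbpj held whichever replicate number was left out. Those of Furin and Kat2b were lost without number 3 (adjusted p = 0.149 and 0.06 by edgeR), those of Maml1 and Tle1 without number 2 or 3, that of Dlk1 without number 1 or 3, and those of Gxylt2, Numbl and Dtx2 without any 1 of the 3 numbers.

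Several genes of the nuclear complex passed as lower with the block, and by edgeR not without it. Rbpj, the DNA-binding partner of every Notch receptor, had 173, 205 and 166 CPM in diseased and 251, 298 and 249 CPM in un-diseased replicates 1, 2 and 3. All diseased samples lay below all un-diseased ones, as for 15.4% of all tested genes. The differences within replicate numbers were -0.54, -0.54 and -0.59 on the log2 scale. Without the block its log2 fold change was -0.56 (SE 0.13, adjusted p = 0.063 by edgeR), which missed the threshold, whereas DESeq2 without the block called it (adjusted p = 0.00367) and the authors' deposited table gives a q-value of 0.00484. With the block it fell by 0.56 (SE 0.10, adjusted p = 0.00716 by edgeR), and the call held without any 1 replicate number, with adjusted p up to 0.0471.

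Of the 9 tested nuclear activators edgeR called 0 without the block. With it 0 rose and 3 fell, where 13.3% of all tested genes were called lower. DESeq2 without the block called 2 of the 9 lower, Rbpj and Kat2b, against 882 of all 13264 tested genes. The median log2 fold change of the 9 activators was -0.21, with 8 of 9 negative, beside 0.02 and 6390 of 13264 over all tested genes. Besides Rbpj, those that fell with the block were the acetyltransferase gene Kat2b (-0.45, adjusted p = 0.0102 by edgeR; 0.00813 with DESeq2 and no block; 72.2 to 87.2 CPM in diseased against 104.2 to 115.7 in un-diseased samples) and the Mastermind co-activator Maml1 (-0.33, adjusted p = 0.0443 by edgeR). Maml1 overlapped between groups, at 46.8 to 65.8 CPM in diseased and 53.3 to 81.1 CPM in un-diseased samples. It did not pass with DESeq2 and the block (adjusted p = 0.0959). The authors' deposited table gives a q-value of 0.0135 for Kat2b and 0.366 for Maml1.

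Among 13 co-repressor genes 0 rose and 1 fell by edgeR without the block, or 7.69%, where 2.13% of all tested genes were called lower. With the block 0 rose and 2 fell, or 15.4%, near the 13.3% of all tested genes called lower. The gene that fell without the block was the Groucho-related Tle4, which encodes a co-repressor recruited by Hes proteins. Tle4 had 3.52, 4.05 and 3.67 CPM in diseased and 10.1, 17.7 and 8.92 CPM in un-diseased replicates 1, 2 and 3. Each diseased sample lay below each un-diseased one, as for 15.4% of all tested genes, and un-diseased replicate 2 was the highest. Its log2 fold change was -1.71 (SE 0.28, adjusted p = 0.0277 by edgeR); without un-diseased replicate 2 it was -1.35 (adjusted p = 0.0723), and without un-diseased replicate 1 the adjusted p was 0.0319. By edgeR Tle1, its relative, fell with the block (-0.47, adjusted p = 0.0132) and did not pass without it (0.06), while DESeq2 without the block called it (adjusted p = 0.0178) and the authors' deposited table gives a q-value of 0.0252. It went from 30.9 to 34.4 CPM in un-diseased to 21.9 to 26.6 CPM in diseased samples. Ncor1, the co-repressor with most RNA, had 147.3 to 173.5 CPM (log2 fold change -0.11, adjusted p = 0.494 by edgeR).

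The gene that rose without the block acts on the receptors' extracellular repeats. Poglut1, the glucosyltransferase that adds O-glucose to Notch, had 32.2, 30.6 and 34.1 CPM in diseased and 20.9, 15.9 and 18.7 CPM in un-diseased replicates 1, 2 and 3. The lowest diseased sample lay above the highest un-diseased one, as for 16.5% of all tested genes. The log2 fold change was 0.80 (SE 0.13, adjusted p = 0.0259 by edgeR, and 0.00314 with the block). Without un-diseased replicate 1 it held (adjusted p = 0.0302), and without any 1 of the other 5 libraries the adjusted p was 0.0515 to 0.132 at a fold change of similar size. In this role 8 genes were tested. By edgeR 1 rose and 0 fell without the block, where 1.61% of all tested genes rose, and 2 rose with it, where 10.5% did. The median of the 8 was 0.25, and 6 of 8 estimates were positive, beside 6874 of 13264 over all tested genes. Gxylt2, a xylosyltransferase acting on that glucose, had 136, 180 and 154 CPM in diseased and 98.0, 132 and 129 CPM in un-diseased samples, and rose with the block (0.39, adjusted p = 0.0235 by edgeR) and did not pass without it (0.164).

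By edgeR 0 of 10 tested genes for receptor cleavage rose and 0 fell without the block. With it 1 of 10 fell, near the 13.3% of all tested genes, Furin, the protease of the first cut during receptor maturation (-0.54, adjusted p = 0.0367 by edgeR), with 139.8 to 212.5 CPM in diseased and 213.8 to 278.8 CPM in un-diseased samples. The gamma-secretase genes Ncstn and Aph1a had log2 fold changes of 0.02 and 0.04, and Adam10, the main ligand-induced protease, 0.28 (adjusted p = 0.136 by edgeR). Aph1b and Aph1c are near-identical copies, so the split of reads between them is uncertain. By edgeR, of 9 tested genes of receptor turnover and inhibition 0 rose and 0 fell without the block and 2 fell with it, where 13.3% of all tested genes did, Numbl (-0.31, adjusted p = 0.0379 by edgeR) and Dtx2 (-0.41, adjusted p = 0.0229 by edgeR). With DESeq2, neither passed with the block (adjusted p = 0.0861 and 0.0782), and Numbl alone passed without it (0.042; Dtx2 0.0587). Nedd4, a ubiquitin ligase with the most RNA of that role, had 1018 to 1236 CPM (log2 fold change 0.18, adjusted p = 0.381 by edgeR).

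**Figure D4:**
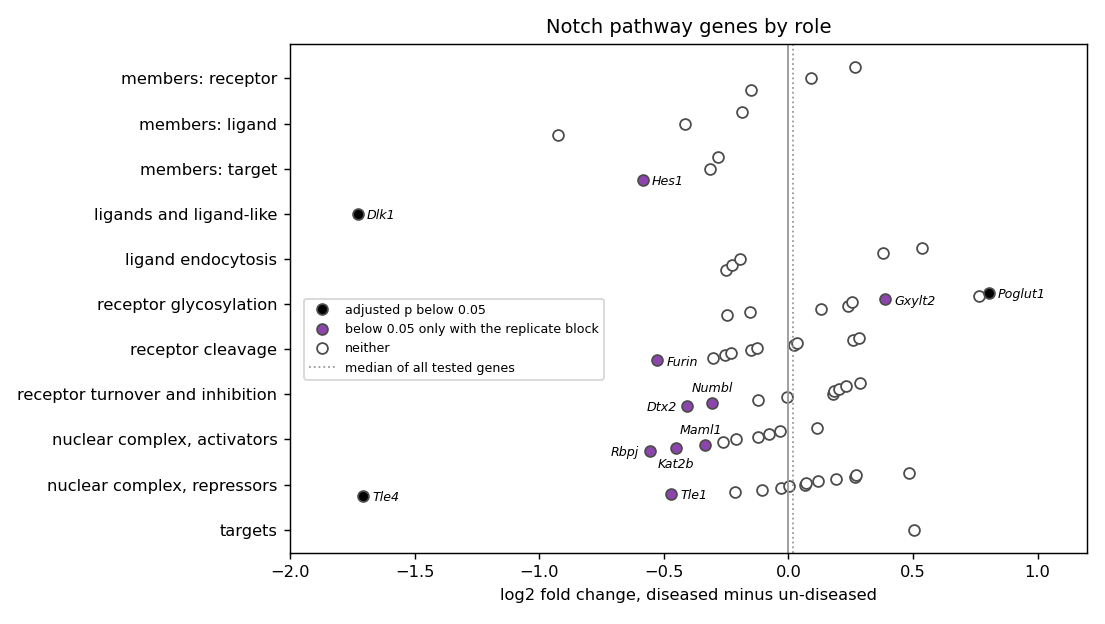
Log2 fold change (diseased minus un-diseased, horizontal axis) of the tested Notch pathway genes by role, each point a gene: black passed the edgeR test, purple passed edgeR only with the replicate block and white passed neither; the dotted line is the median of all tested genes. Dlk1 and Tle4 lie near -1.7, Poglut1 is the black point on the right at 0.80, and 8 of 9 nuclear activators lie left of 0. Dlk1 passed the filter on low counts through the un-diseased samples alone.

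Of the other ligand genes only Dlk1 was tested, a Delta-like protein without the ligand domain that binds Notch and a known marker of preadipocytes. It passed the filter on low counts through the un-diseased samples alone, so its call is not taken as support for a fall. Dlk1 counts were 8, 6 and 5 in diseased and 27, 15 and 18 in un-diseased replicates 1, 2 and 3. It had 0.391, 0.374 and 0.27 CPM in diseased and 1.41, 0.939 and 1.12 CPM in un-diseased replicates 1, 2 and 3. Its log2 fold change was -1.73 (SE 0.35, adjusted p = 0.0443 by edgeR), and the adjusted p was 0.0504 with no filter beyond 1 count, 0.0504 with limma-voom and 0.0639 to 0.182 without any 1 library. Dll4, the main Delta-like ligand of endothelium, had 6 to 13 counts and was not tested; it had 0.342 to 0.378 CPM in diseased and 0.469 to 0.814 CPM in un-diseased samples. Of 5 genes for ligand endocytosis 0 rose and 0 fell by edgeR, with or without the block. Over all tested genes 3.73% were called, or 23.9% with the block. Mib1, the ubiquitin ligase that pulls ligands inward, had 110.1 to 152.9 CPM. Of 7 further genes listed as targets and with a row, only Hes6 was tested, at 3.69 to 9.2 CPM (log2 fold change 0.51, adjusted p = 0.296 by edgeR). Unlike Hes1, it was higher in the diseased sample within 3 of 3 replicate numbers (0.53, 0.36 and 0.57 on the log2 scale). With the block its log2 fold change was 0.49 (adjusted p = 0.0523 by edgeR), which did not pass.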

How the data were processed

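Bulk RNA-seq of 6 samples was analysed, 3 diseased and 3 un-diseased by the treatment label. The deposited table gives estimated counts per gene, made by the authors. RSEM 1.3.1, HISAT2 2.0.4, DESeq2 1.4.5 and GRCm38 are named, per the submitters' processing notes, without role or order. The authors' deposited table also gives, per gene, a log2 ratio with its p-value and q-value. The 9.6% of counts that were not whole were rounded. Genes were kept with filterByExpr (least count 10), scaled by TMM and compared by edgeR 4.0.16 (R 4.3.3) over all 13264 kept genes; limma 3.58.1, DESeq2 1.42.0, other scalings and filters, a replicate block and leaving out each sample were alternatives. The fits were tested on simulated data.

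Correlations of deviations between same-numbered samples were 0.487, 0.578 and 0.276 for numbers 1, 2 and 3. The highest with another number were 0.137, -0.068 and 0.137. The numbers, which come from the titles, were therefore taken to pair the samples. What a number marks is not in the labels, and the pairing was inferred from the same counts that the blocked fits use. Intervals are 95% intervals from the SE and the test's degrees of freedom. Merged exon lengths are from GENCODE M21 (GRCm38), positions and promoter windows from RefSeq (GRCm38.p6), 1-based. Whether counting used strand is not given in the sources used here. Exons of Notch1, Notch3 and Dll1 overlap non-coding genes on the other strand. Those of Notch2 overlap the gene Gm42820 on the same strand, which counting by strand could not resolve.

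The members and lists were chosen with earlier results of these data known. All 10 members were named, and of the other pathway genes those past the threshold without the block, up to 8 more past it with the block, and the gene with most RNA in each role. Besides these, Pdgfra, Pecam1, Cdh5, Ncstn, Aph1a, Adam10, Aph1b, Aph1c, Dll4, Erg, Tek, Cspg4 and Abcc9 were named after their values were seen.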

Additional observations from a re-analysis of the deposited data

How the results depend on the processing

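The count of Notch genes called higher stayed at 0 under every alternative run. The count called lower stayed at 0 except with the replicate block, where it was 1 (edgeR, DESeq2, and no filter beyond 1 count, the last added after seeing the data) and 0 to 1 leaving out a replicate number. Of 169 alternative values of the 9 fold changes, 160 kept direction and side of the threshold. That tally does not measure stability, since the threshold of 0.01 reuses the main fit. A missing adjusted p, for Jag2 with DESeq2 and the block, was counted as not passed. Fits without the block on fewer samples mostly called few genes at all. The sign turned for Notch1 when diseased replicate 2 (-0.136), un-diseased replicate 1 (-0.022) or, with the block, replicate 2 (-0.063) was left out, the range over single left-out samples being -0.136 to 0.32. It also turned for Jag1 with the block and no replicate 3 (0.089) and for Hey1 with the block and no replicate 1 (0.03); the cause was not tested. Of the other pathway genes, 1 rose and 2 fell: 0 and 0 at a threshold of 0.01, 2 and 9 with the block, 2 and 5 with DESeq2 and the block, and 2 and 9 with the block and no filter beyond 1 count. Those that fell numbered 6 with DESeq2 and 1 each with limma-voom, no filter beyond 1 count and at least 1 CPM in 3 samples. Leaving out replicates gave 0 to 2 rises and 0 to 1 falls without the block, and 1 to 2 and 2 to 7 with it. Over all genes, 213 higher and 282 lower became 635 and 882 with DESeq2, 2 and 2 at 0.01, 1397 and 1770 with the block, 807 and 1410 with DESeq2 and the block, 1440 and 1784 with the block and no filter beyond 1 count, and 417 higher with upper-quartile factors; leaving out replicates gave 2 to 354 and 3 to 721, and with the block 426, 809 and 1013 higher and 583, 1274 and 1556 lower without replicates 3, 2 and 1. Depth limits Notch4, Jag2, Dll1, Hey1 and Heyl, where a count of 3 is worth 0.147 to 0.188 CPM, for counting error only.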
